A study of Rattus norvegicus with 8 samples.

Results

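The genes of cholesterol and fatty acid synthesis were compared between kidneys of Si deplete and Si replete rats. They comprise 34 genes chosen by name: 15 enzymes that lead from acetyl units to cholesterol, 10 enzymes that make, elongate or desaturate fatty acids, 5 genes of the sterol sensor and 4 genes that move sterol within and out of cells. A gene was taken where a probe set carried its symbol alone in the platform annotation, and the probe set with the highest mean over the 8 arrays stood for the gene. By this rule 33 of the 34 genes were measured, of 14217 genes named on the array. Hmgcs1, the HMG-CoA synthase at the head of the mevalonate pathway, had no such probe set and its level was not analysed here. All rats were female Sprague-Dawley, 29 weeks old, after 26 weeks on their diet. Both groups ate the same formulated feed that is low in Si. The 4 Si deplete rats drank water low in Si, which brought their intake to 0.17 mg Si per day and kg body weight, whereas the 4 Si replete rats received orthosilicic acid in their drinking water and took in 4.1 mg. Whole left kidneys were ground and each gave 1 array, so a level mixes every cell type of the organ, and fewer cells of a type cannot be told apart from less RNA per cell.

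Cells build cholesterol from acetyl-CoA through mevalonate, farnesyl diphosphate, squalene and lanosterol. The supply is set by SREBP transcription factors, which are held in the endoplasmic reticulum by Scap and the Insig proteins while sterol is plentiful, and are carried to the Golgi and cut free when it is scarce. Fatty acids are built from cytosolic acetyl-CoA and malonyl-CoA by fatty acid synthase and are then elongated and desaturated, under control of the SREBP encoded by Srebf1 and of the liver X receptor, which also raises cholesterol efflux. The proximal tubule, the bulk of the kidney cortex, burns fatty acids as its main fuel and makes cholesterol for its large membranes.

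SREBP proteins act on promoters together with NF-Y, which binds CCAAT, so the promoters of the set were read for short motifs. The RefSeq promoter windows used here (assembly GRCr8) covered 27 of the 34 genes, 30 windows in all. Each ran from 250 bases before to 50 bases after a start of transcription. Fasn, Acaca, Elovl6, Fdft1, Sqle, Pmvk and Stard4 had no window, so the shares below leave them out. The letters CCAAT, on either strand, were found in 66.7% of these windows and in 37.5% of all 33469 rat windows of the same length. They were in 10 of the 12 windows of sterol enzymes (83.3%) and in 3 of the 7 windows of fatty acid enzymes (42.9%). The GC box, written as GGGCGG on either strand, was in 73.3% of the windows of the set and in 33.1% of all windows. The E-box CACGTG was in 16.7% and in 6.42%. The letters TCACNCCAC, a form of the sterol regulatory element, were in 0 of the 30 windows and in 1.12% of all windows on either strand. At so low a share, 0 of 30 is the likely outcome and does not set these genes apart. Other forms of the element were not searched. Among these matches, 1 pair overlapped and none of the CCAAT matches was part of it. The stretches of 250 bases that end at the start of transcription are given here for 4 genes, with CCAAT, or ATTGG where it lies on the other strand, in capitals. Mvk (chr12:47819504-47819753, minus strand) and Nsdhl (chrX:155817110-155817359, plus strand) are enzymes of the sterol branch with 5 matches each, the most of any window of the set. Elovl5 (chr8:87670914-87671163, plus strand), a fatty acid elongase, has 2 matches, the most of any window of a fatty acid enzyme. It is also the gene whose levels did not overlap between the groups. Me1 (chr8:96540245-96540494, minus strand) is a lipogenic enzyme with 0 matches.
Mvk: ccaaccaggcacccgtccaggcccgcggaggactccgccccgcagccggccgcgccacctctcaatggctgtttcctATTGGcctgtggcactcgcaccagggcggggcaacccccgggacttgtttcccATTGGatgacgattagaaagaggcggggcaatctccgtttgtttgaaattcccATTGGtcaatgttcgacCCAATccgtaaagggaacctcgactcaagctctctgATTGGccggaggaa
Nsdhl: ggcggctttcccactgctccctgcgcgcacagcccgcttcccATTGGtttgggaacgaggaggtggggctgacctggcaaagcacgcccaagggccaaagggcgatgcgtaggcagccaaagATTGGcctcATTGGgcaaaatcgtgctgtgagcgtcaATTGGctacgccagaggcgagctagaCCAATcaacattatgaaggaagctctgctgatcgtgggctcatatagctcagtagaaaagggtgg
Elovl5: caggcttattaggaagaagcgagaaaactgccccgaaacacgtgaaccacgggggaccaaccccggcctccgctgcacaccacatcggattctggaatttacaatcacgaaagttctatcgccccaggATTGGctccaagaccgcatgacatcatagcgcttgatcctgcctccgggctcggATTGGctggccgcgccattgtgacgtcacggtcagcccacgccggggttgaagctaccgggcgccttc
Me1: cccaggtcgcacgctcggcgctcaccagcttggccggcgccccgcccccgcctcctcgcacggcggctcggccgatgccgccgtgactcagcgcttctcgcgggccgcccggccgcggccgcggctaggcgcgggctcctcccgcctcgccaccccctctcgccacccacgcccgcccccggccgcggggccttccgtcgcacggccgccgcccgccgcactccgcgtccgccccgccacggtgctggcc

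**Figure D1:**
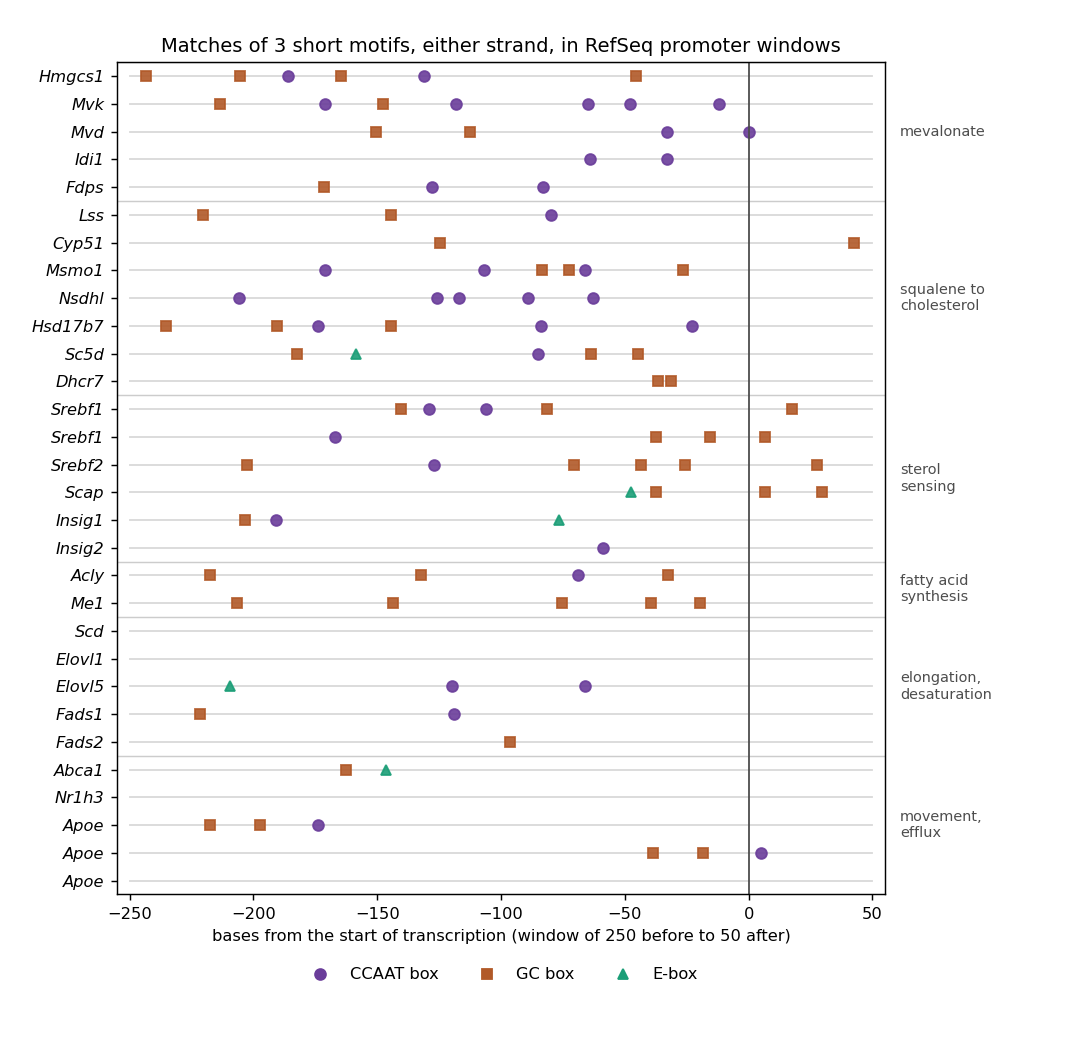
Positions of CCAAT (circles), GGGCGG (squares) and CACGTG (triangles), on either strand, in the 30 RefSeq promoter windows of the set, as the distance in bases from the start of transcription (vertical line). CCAAT matches lie in 10 of the 12 windows of sterol enzymes and 3 of the 7 of fatty acid enzymes.

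The values are log2 levels made by gcRMA, a method that corrects each probe for background and brings the arrays to a common scale. A difference of 1 on this scale is 2-fold, and 51.3% of all probe sets had a mean under 4, where signal is close to background. Array medians lay between 3.80 and 3.92. Si deplete replicate 1 stood apart from the other arrays, with a score of 64.0 on the first principal component against -25.9 to 19.2 for the other 7 arrays, so results were also computed without it. Markers of the proximal tubule were bright, with means of 8.02 to 12.96 for its 10 genes. The 4 kidneys of a group are separate rats, and how these rats were picked from the larger groups is not given in the sources used here.

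None of the 33 genes passed an adjusted p of 0.1 in limma, the threshold that the study's methods name, where 0.204% of all genes did so. The smallest adjusted p of the set was 0.216, for Fasn. At an unadjusted p under 0.05 there were 4 of the 33 genes (12.1%), against 18.5% of all genes. Fasn, the fatty acid synthase, and Acaca, which makes malonyl-CoA, were the 2 on the higher side, where 10.5% of all genes lay. Fdft1 and Me1 were the 2 on the lower side, where 7.95% of all genes lay. The groups did not overlap for 1 of the 33 genes (3.03%), Elovl5, against 11.9% of all genes. By each of these counts over both directions the share of the set was below that of all genes in this fit. In a set of 33 genes 1 gene is 3.03%, so 0 past the adjusted p cannot be told apart from 0.204%. The order at an unadjusted p under 0.05 turned in some alternative fits described below. With each array's median subtracted it was 24.2% of the set against 20.3% of all genes. The median log2 difference, Si deplete minus Si replete, was 0.06 over the 33 genes and 0.00 over all genes, with 19 genes above and 14 below 0. The median size of the difference regardless of sign was 0.25 for the set and 0.13 for all genes, of which many were dim. Further probe sets, 25 in all, were present for 20 of the genes, and of the 14 with a mean of 4 or more 12 differed in the same direction as the probe set used.

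**Figure D2:**
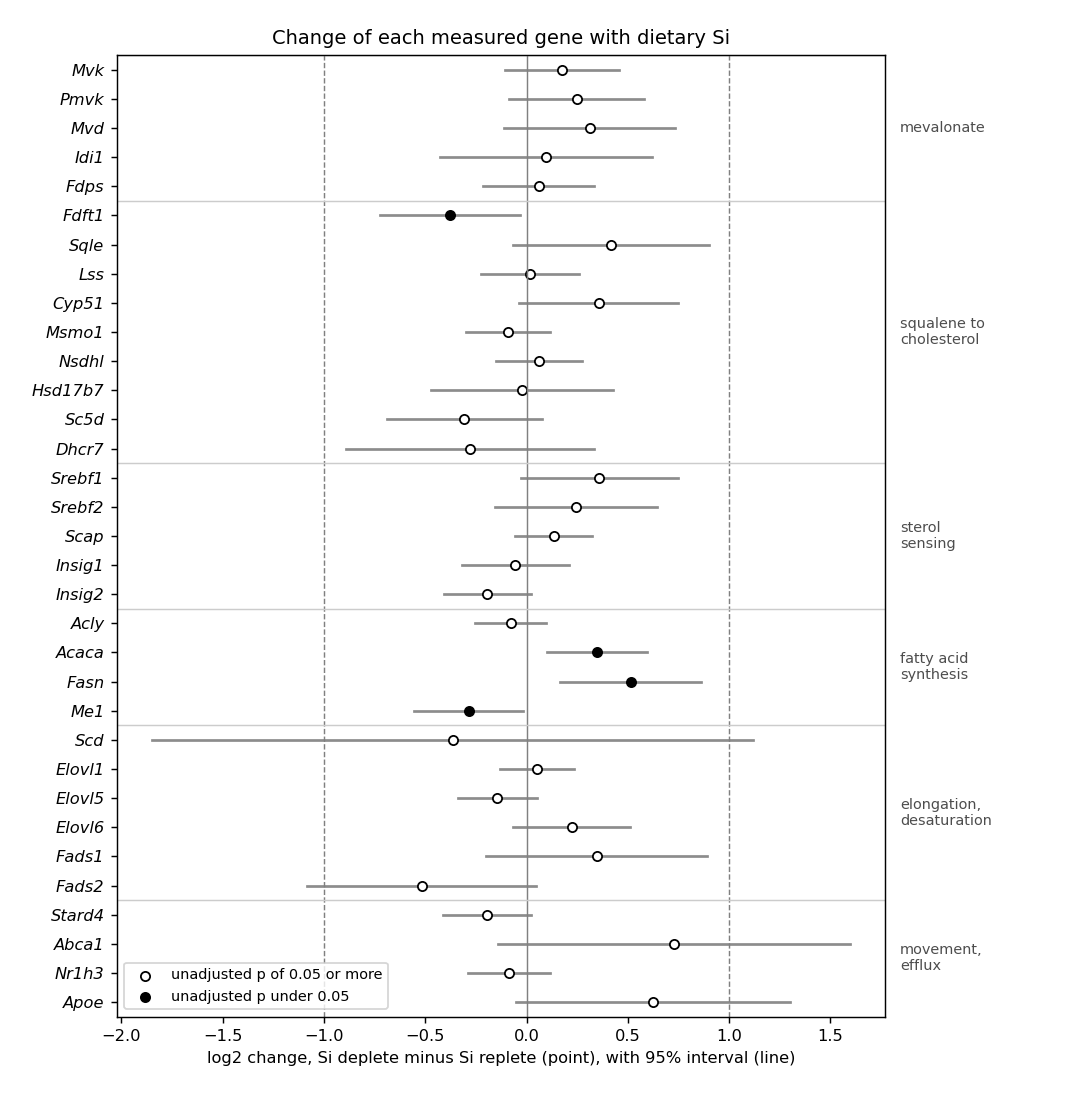
Log2 difference of each measured gene, Si deplete minus Si replete (points), with its 95% interval from limma (lines), by role. Filled points mark Acaca, Fasn, Fdft1 and Me1, the 4 genes with an unadjusted p under 0.05, and the dashed lines mark a 2-fold difference in either direction, which the intervals of 29 of the 33 genes do not reach.

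The 5 measured enzymes from mevalonate to farnesyl diphosphate all had a higher mean in Si deplete kidneys, by a median of 0.18, and none passed the test. Much of this lay in 1 kidney, since Si deplete replicate 1 was the highest of the 8 arrays for each of the 5 genes. Pmvk, the phosphomevalonate kinase, had log2 levels of 8.13, 7.41, 7.69 and 7.50 in replicates 1 to 4 of the Si deplete group, against 7.52, 7.37, 7.48 and 7.37 in those of the Si replete group. Mvd, the decarboxylase that yields isopentenyl diphosphate, had levels of 5.42, 5.14, 4.52 and 4.67 against 4.74, 4.46, 4.59 and 4.72. Mvk, the mevalonate kinase whose promoter is printed above, had 4.97, 4.50, 4.50 and 4.74 against 4.65, 4.38, 4.39 and 4.60. In all 3 genes the groups overlapped. The differences were 0.25 for Pmvk (standard error 0.15, adjusted p = 0.458), 0.31 for Mvd (standard error 0.19, adjusted p = 0.463) and 0.18 for Mvk (standard error 0.12, adjusted p = 0.537). Idi1, the isopentenyl diphosphate isomerase, ranged from 7.37 to 8.56 in the Si deplete group, against 7.58 to 7.92. Fdps, which joins the isoprene units into farnesyl diphosphate, ranged from 9.52 to 10.10 and from 9.66 to 9.85. Without Si deplete replicate 1 the 5 differences had a median of 0.08, with 3 above 0, and those of Idi1 and Fdps were -0.16 and -0.03.

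From squalene to cholesterol the 9 enzymes showed no common direction, with 4 above and 5 below 0 and a median of -0.02. Fdft1, the squalene synthase that commits farnesyl diphosphate to sterols, was the one sterol enzyme with an unadjusted p under 0.05. It lost this with array weights, with quantile normalization, with the mean of its probe sets, and when Si deplete replicate 1, Si replete replicate 1 or Si replete replicate 3 was omitted. Its levels were 10.44, 10.83, 10.84 and 10.93 in the Si deplete and 11.20, 10.92, 11.49 and 10.94 in the Si replete kidneys. The lowest of the 8 was Si deplete replicate 1 and the highest Si replete replicate 3, and Si deplete replicate 4 lay just above Si replete replicate 2, so the groups overlapped. The difference in means was -0.38 (standard error 0.15, unadjusted p = 0.0352, adjusted p = 0.303), and was -0.27 without Si deplete replicate 1. The other probe set of Fdft1 differed by -0.40 (standard error 0.27). Sqle, the squalene epoxidase, had levels of 7.68, 7.10, 6.73 and 7.01 against 7.01, 6.52, 6.95 and 6.38. Cyp51, the lanosterol demethylase, had 8.71, 8.58, 8.06 and 8.30 against 8.18, 8.11, 8.27 and 7.66. Both had the lowest level in Si replete replicate 4 and the highest in Si deplete replicate 1. The differences were 0.42 for Sqle (standard error 0.21, adjusted p = 0.397) and 0.36 for Cyp51 (standard error 0.17, adjusted p = 0.373), and 0.23 and 0.25 without Si deplete replicate 1. The other probe set of Cyp51 differed by 0.02.

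The later steps of the pathway differed less from 0 or varied more between kidneys. Lss, which closes the ring of lanosterol, differed by 0.02, Nsdhl and Hsd17b7, which act in the removal of methyl groups with Msmo1, by 0.06 and -0.02, and Msmo1 by -0.09. Sc5d, the desaturase before the last reduction, differed by -0.31 (standard error 0.17, adjusted p = 0.428), with 8.31 to 9.04 in the Si deplete group against 8.67 to 9.26. Without Si deplete replicate 1, its highest array in that group, Sc5d differed by -0.44 (unadjusted p = 0.0161, adjusted p = 0.303). The other probe sets of Sc5d differed by -0.12 and -0.34, and by only -0.08 and -0.16 without that array. Dhcr7, which carries out the last reduction to cholesterol, was highest in Si replete replicate 3, at 9.36 where the other 7 kidneys lay between 7.94 and 8.55. Its difference of -0.28 was 0.00 without that kidney. For the 14 measured sterol enzymes the 95% intervals ran from -0.89 to 0.90 at their extremes, within 2-fold of no difference. Smaller differences lie inside these intervals, so the enzymes are not shown to be equal between the diets.

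Of the sterol sensor, by the probe sets used, the transcription factor genes had higher means in Si deplete kidneys and the Insig genes lower ones. None of the 5 passed the test. Srebf1 had levels of 6.57, 5.86, 5.80 and 5.89 in Si deplete and of 5.85, 5.50, 5.72 and 5.60 in Si replete kidneys. Si deplete replicate 1 was the highest, and Si replete replicate 1 lay among the other 3 Si deplete kidneys. The difference of 0.36 (standard error 0.17, adjusted p = 0.363) was 0.18 without Si deplete replicate 1. Its other probe set was dim, with means of 3.97 and 3.59, and differed by 0.38 (standard error 0.13, unadjusted p = 0.0173, adjusted p = 0.248) with no overlap between the groups. Srebf2, the regulator of the sterol enzymes, ranged from 6.02 to 6.97 and from 6.09 to 6.33 and differed by 0.25, or by 0.09 without Si deplete replicate 1. Scap, the escort of SREBP, had levels of 9.38, 9.54, 9.51 and 9.28 against 9.39, 9.23, 9.24 and 9.32, a difference of 0.13 (standard error 0.08, adjusted p = 0.488). Insig2, which retains Scap and SREBP when sterol is plentiful, had 8.26, 8.37, 8.60 and 8.52 against 8.70, 8.71, 8.53 and 8.59. Its groups overlapped and its difference was -0.19 (standard error 0.10, adjusted p = 0.378). Insig1, itself a target of SREBP, differed by -0.06.

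**Figure D3:**
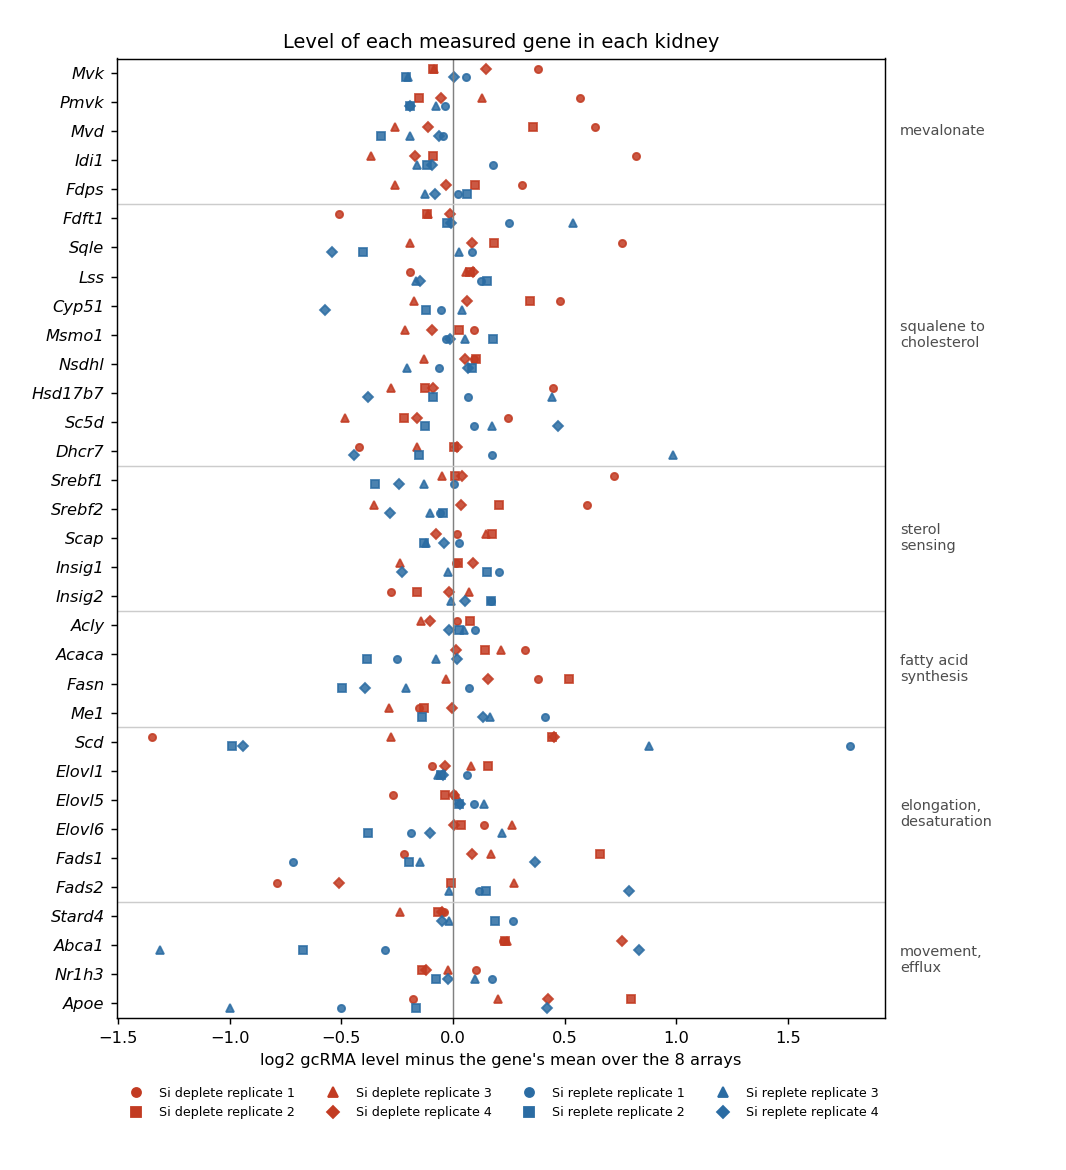
Log2 gcRMA level of each of the 33 genes in each kidney, as the deviation from the gene's mean over the 8 arrays (Si deplete red, Si replete blue, marker shape by replicate number). Si deplete replicate 1 (red circles) is the highest of the 8 for 8 of the 14 sterol enzymes, and Elovl5 is the one gene whose red and blue points do not overlap.

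Fatty acid synthesis proper held 3 of the 4 genes with an unadjusted p under 0.05, in both directions. That is 75% of its 4 enzymes, against 18.5% of all genes, and so short a list makes the share coarse. Fasn, the fatty acid synthase, had log2 levels of 8.02, 8.17, 7.61 and 7.80 in Si deplete and of 7.72, 7.15, 7.43 and 7.25 in Si replete kidneys. All Si deplete kidneys but replicate 3 lay above every Si replete kidney, and Si replete replicate 1 overlapped them. The means were 7.90 ± 0.24 and 7.39 ± 0.25 (SD, n = 4 each), a difference of 0.51 (standard error 0.15), which is 1.43-fold. It exceeded the SD within either group but not the threshold (unadjusted p = 0.00867, adjusted p = 0.216). The exact 2-sided permutation test gave p = 0.0571, where 4 kidneys against 4 allow no p below 0.0286. Acaca, the acetyl-CoA carboxylase that makes malonyl-CoA, had levels of 8.11, 7.93, 8.00 and 7.80 against 7.54, 7.40, 7.71 and 7.81. Of the Si replete kidneys, replicate 4 alone reached into the Si deplete range. The difference was 0.35 (standard error 0.11, unadjusted p = 0.0113, adjusted p = 0.226), which is 1.27-fold. Without Si deplete replicate 1 the differences were 0.47 for Fasn and 0.30 for Acaca. Both rest on 1 probe set each: the other probe set of Fasn differed by 0.30 (standard error 0.24), and that of Acaca, near background with means of 2.08, by 0.00. With the mean of all probe sets of a gene, neither had an unadjusted p under 0.05.

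Me1, the malic enzyme that supplies NADPH for fatty acid synthesis, lay on the other side of 0. Its levels were 10.61, 10.63, 10.48 and 10.76 in Si deplete and 11.17, 10.62, 10.93 and 10.90 in Si replete kidneys, with Si replete replicate 2 inside the Si deplete range. The difference was -0.29 (standard error 0.12, unadjusted p = 0.0402, adjusted p = 0.316). Its other probe set differed by -0.33 (standard error 0.11, unadjusted p = 0.0146, adjusted p = 0.238), so the 2 probe sets of Me1 gave like values. Acly, which releases cytosolic acetyl-CoA from citrate, ranged from 9.74 to 9.96 in the Si deplete group, against 9.87 to 9.98, with a difference of -0.08 and a 95% interval of -0.25 to 0.10. Fasn and Acaca thus had higher means and Me1 a lower mean in the same kidneys.

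**Figure D4:**
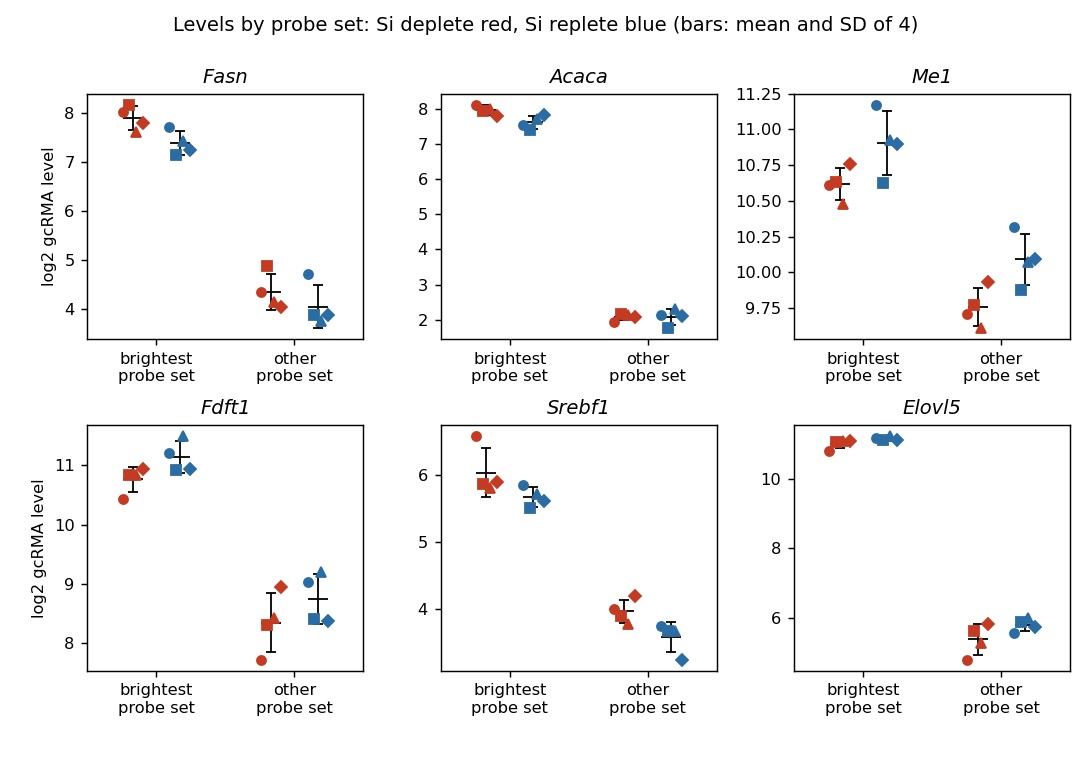
Log2 gcRMA levels of the brightest and the other probe set of Fasn, Acaca, Me1, Fdft1, Srebf1 and Elovl5 in each kidney, Si deplete red and Si replete blue, with mean and SD of 4; circles, squares, triangles and diamonds are replicates 1 to 4, and each panel has its own scale. The other probe sets of Acaca (means of 2.08) and Fasn (means of 4.35 and 4.04) were dimmer and gave smaller differences than the brightest ones.

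Of the 6 elongases and desaturases, 3 lay above and 3 below 0, with a median difference of -0.05. Elovl5, which elongates polyunsaturated fatty acids, had levels of 10.81, 11.05, 11.09 and 11.08 in Si deplete and of 11.17, 11.11, 11.22 and 11.11 in Si replete kidneys. Every Si deplete kidney lay below every Si replete kidney (exact 2-sided permutation test, p = 0.0286, the smallest that 4 against 4 allow), although the gap between the groups was narrow. The difference was -0.14 (standard error 0.09, adjusted p = 0.457), and -0.08 without Si deplete replicate 1, the lowest of the 8. Its dimmer probe set differed by -0.41 (standard error 0.21, adjusted p = 0.380) with overlap. Elovl6, which elongates the products of fatty acid synthase, had levels of 7.55, 7.45, 7.67 and 7.42 against 7.22, 7.03, 7.63 and 7.31, a difference of 0.22 (standard error 0.13, adjusted p = 0.441). Only Si replete replicate 3 lay inside the Si deplete range. The other probe set of Elovl6, with means of 6.76 and 6.74, differed by 0.01. Fads2, which opens the synthesis of polyunsaturated fatty acids, had 5.27, 6.05, 6.33 and 5.55 against 6.17, 6.20, 6.04 and 6.84, a difference of -0.52 (standard error 0.25, adjusted p = 0.371). Fads1, the next desaturase, differed by 0.35 in the other direction, with 8.45 to 9.33 and 7.95 to 9.04. Elovl1, which makes very long saturated chains, differed by 0.05. Scd, the stearoyl-CoA desaturase, was dim and spread from 2.08 to 5.21 over the 8 kidneys, and its interval of -1.85 to 1.12 spans over 2-fold both ways.

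Set side by side, the sterol and the fatty acid branch did not separate between the diets. The median log2 difference was 0.06 over 14 sterol enzymes, 9 of them above 0, and -0.01 over 10 fatty acid enzymes, 5 of them above 0. The mean deviation of the sterol enzymes from their means over all arrays was 0.27, 0.03, -0.18 and -0.02 in the Si deplete kidneys, by replicate number, against 0.06, -0.09, 0.08 and -0.14 in the Si replete ones. For the fatty acid enzymes it was -0.20, 0.19, 0.03 and 0.01 against 0.15, -0.24, 0.09 and -0.02. Both branches overlapped between the groups. Si deplete replicate 1 had the highest sterol value of the 8 kidneys and the second lowest fatty acid value. The sterol value minus the fatty acid value was 0.02 ± 0.31 in Si deplete and -0.02 ± 0.12 in Si replete kidneys (SD, n = 4 each), a difference smaller than either SD. Without Si deplete replicate 1 the medians over the genes were 0.00 for the sterol and 0.06 for the fatty acid enzymes, so the order of the branches turned, as it did without Si replete replicate 1 (0.07 and 0.12). Si deplete replicate 1 was the highest array for 57.1% of the sterol enzymes and 10.0% of the fatty acid enzymes, and for 26.7% of all genes.

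**Figure D5:**
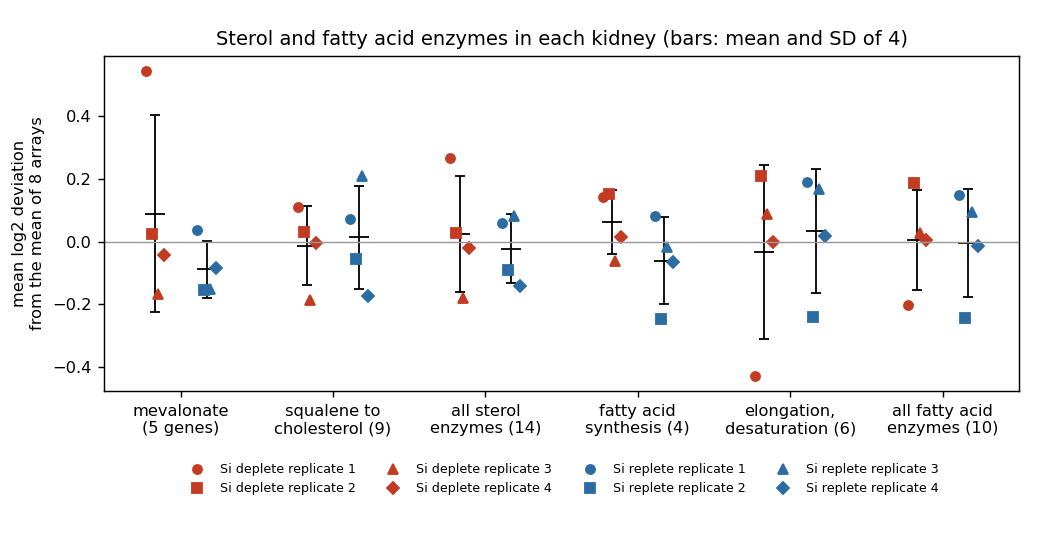
Mean log2 deviation of the enzymes of each branch, and of its parts, from their means over the 8 arrays, by kidney (points), with mean and SD of 4 (bars). Si deplete replicate 1 (red circles) is at 0.27 for all sterol enzymes and at -0.20 for all fatty acid enzymes, and the groups overlap in every column.

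Among the genes that move sterol, the 2 of the efflux pathway had the largest differences of the set. Apoe, the apolipoprotein that carries sterol away from macrophages and other cells, had log2 levels of 9.22, 10.20, 9.61 and 9.83 in Si deplete and of 8.90, 9.24, 8.41 and 9.82 in Si replete kidneys. Abca1, the transporter that loads cholesterol onto lipoproteins, had 7.37, 7.38, 7.38 and 7.90 against 6.83, 6.47, 5.83 and 7.97. For both genes Si replete replicate 3 was the lowest of the 8, and Si replete replicate 4 was within or above the Si deplete range. The differences were 0.62 for Apoe (standard error 0.30, adjusted p = 0.369) and 0.73 for Abca1 (standard error 0.38, adjusted p = 0.408), and 0.79 and 0.77 without Si deplete replicate 1. The 3 other probe sets of Abca1 differed by 0.50, -0.03 and -0.07, and that of Apoe, which was dim, by 0.13. Nr1h3, the liver X receptor that drives Abca1 and Apoe, differed by -0.09 (95% interval -0.29 to 0.11). Stard4, a carrier of cholesterol between membranes, was close to background, with levels of 4.37, 4.34, 4.18 and 4.36 against 4.68, 4.60, 4.40 and 4.36, and differed by -0.19 (standard error 0.10, adjusted p = 0.378).

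Macrophage markers were read beside Apoe and Abca1. Of 12 such genes, chosen with earlier results of these data known, 11 had a higher mean in Si deplete kidneys, with a median difference of 0.58. At an unadjusted p under 0.05 there were 5 (41.7%, against 18.5% of all genes). None passed the adjusted threshold (smallest adjusted p = 0.211). Their levels, summed on the linear scale, were 3908, 5829, 3806 and 5790 in Si deplete and 3459, 4297, 2398 and 4497 in Si replete kidneys. The sum was lowest in Si replete replicate 3 and highest in Si deplete replicate 2. These are also the lowest and the highest kidney for Apoe. Abca1 was lowest in Si replete replicate 3 too, but highest in Si replete replicate 4. Lyz2, the brightest of the 12, weighs most in the sums and differed by 0.33 (standard error 0.22, adjusted p = 0.524). Cd68, Cd163 and Itgam were dim, with means under 4. The part of macrophages in the levels of Apoe and Abca1 was not tested.

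The injured tubule was read from 9 marker genes. All 9 had a higher mean in Si deplete kidneys, with a median difference of 0.95 and a smallest adjusted p of 0.120. The groups did not overlap for 8 of them (88.9%), against 11.9% of all genes. These genes too were chosen with earlier results of these data known. Their summed linear level spanned 32013 to 65637 in the Si deplete group, highest in replicate 1, against 18905 to 25727. The sum of the 10 proximal tubule markers ran from 30336, in Si deplete replicate 1, to 47211 and from 42835 to 48668, with a median difference of -0.15. Of the 7 measured adipocyte markers 3 had means under 4, and their sums overlapped, from 206.8 to 497.0 and from 362.6 to 681.2. Of the 6 measured adrenal cortex markers 5 had means under 4, with sums of 56.6 to 75.7 and 72.2 to 91.5. Mrap, the brightest of them, weighs most in these sums. In Si deplete kidneys 5 had a lower and 1 a higher mean. Mrap and the dim Cyp21a1, both lower, had an unadjusted p under 0.05 in limma (33.3%, against 18.5% of all genes), and none passed the adjusted threshold. The part of these cells and of the injury in the levels of the lipid genes was not tested.

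Other genes of the same pathways were read from lists of 61 genes, of which 49 were measured. None passed the adjusted threshold, 9 (18.4%) had an unadjusted p under 0.05, and the groups did not overlap for 7 (14.3%), shares to be read beside the 18.5% and 11.9% of all genes. Of 5 other sterol enzymes 3 lay below 0. Ebp, the sterol isomerase, had levels of 8.48, 8.54, 8.51 and 8.62 in Si deplete and of 8.83, 8.80, 8.67 and 8.73 in Si replete kidneys, with no overlap and a difference of -0.22 (standard error 0.07, adjusted p = 0.237). Ggps1, which turns farnesyl into geranylgeranyl diphosphate, differed by -0.28 (adjusted p = 0.334). Of 14 other fatty acid genes 9 lay below 0. Acss2, which makes cytosolic acetyl-CoA from acetate, was bright, with 12.00, 12.40, 12.55 and 12.56 against 12.72, 12.72, 12.90 and 12.65, and differed by -0.37 with no overlap (standard error 0.13, adjusted p = 0.261). Elovl2, an elongase of polyunsaturated fatty acids, differed by -0.72 (standard error 0.27, adjusted p = 0.276).

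Of 9 genes of sterol uptake and trafficking 6 lay above 0. Scarb1, the receptor for high density lipoprotein, had levels of 6.84, 5.57, 5.47 and 5.38 in Si deplete and of 5.32, 4.45, 4.97 and 5.01 in Si replete kidneys. Its groups did not overlap, by a narrow gap, and the difference of 0.88 (standard error 0.32, adjusted p = 0.268) was 0.53 without Si deplete replicate 1. Stard3, a cholesterol carrier of late endosomes, differed by 0.22 (standard error 0.08, adjusted p = 0.282), also without overlap. Of 9 further genes of the liver X receptor and efflux 5 lay above 0, and their median was 0.01. Ch25h, which makes a hydroxylated cholesterol that restrains SREBP, differed by 0.44 (standard error 0.14, adjusted p = 0.223) without overlap, at means of 4.63 and 4.20. Lcat, which esterifies cholesterol on lipoproteins, was dim and differed by 0.32 (adjusted p = 0.521). Of 12 genes of SREBP processing and lipogenic control 8 lay below 0. Pnpla3, a lipid droplet protein whose gene is a target of SREBP, differed by -0.67 (standard error 0.23, adjusted p = 0.244), and Rnf139, a ubiquitin ligase of the endoplasmic reticulum, by -0.17 (adjusted p = 0.377).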

How the data were processed

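RNA of 8 whole left kidneys was hybridized to Affymetrix rat genome arrays, 1 per rat. The deposited values are log2 levels per probe set, which the authors computed by gcRMA and summarized with m-estimators, and the submitters' processing notes name GCRMA 2.36.0; any filter before deposit is not given in the sources used here. Background correction and normalization are therefore those of the authors. Groups were compared as Si deplete minus Si replete with lmFit and eBayes of limma 3.58.1, run in R 4.3.3, over 31042 probe sets, after 57 control probe sets were left out, with Benjamini-Hochberg adjustment over all of them and a threshold of 0.1. No filter on level was used. Single values were also compared by exact 2-sided permutation over 70 arrangements. The fit was tested on simulated data. With 4 arrays per group their number limits the precision. Symbols come from the platform annotation, and all 33 measured genes matched RefSeq by Entrez ID. Promoter windows are those of RefSeq.

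The genes, their roles and the lists of other pathway genes and cell markers were chosen with earlier results of these data known. All 34 genes are described. Levels in every kidney are given for up to 3 genes of each role with the smallest unadjusted p and for genes whose groups did not overlap, and up to 2 genes of each other pathway list are named. The alternatives changed 1 choice each. For the values, each array's median was subtracted, they were quantile normalized, or probe sets whose mean was under 4 were dropped. The fit was repeated with a trend on intensity, with a robust prior, with array weights, with the replicate number as a block, and with each array omitted. A gene was also taken as the mean of its probe sets, a branch as the mean of its genes, and calls were also made at 0.05 or with Storey's q-value.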

Additional observations from a re-analysis of the deposited data

Results flagged for a closer look

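In 6 of 66 groups of 4 kidneys, 1 kidney lay far from the other 3 by Dixon's ratio (over 0.829), where chance gives about 1 in 20, or 3.3 of 66. Of these values, 3 belong to Si deplete replicate 1: Lss at a log2 level of 6.70 (others 6.95 to 6.98), Srebf1 at 6.57 (others 5.80 to 5.89) and Elovl5 at 10.81 (others 11.05 to 11.09). Stard4 was at 4.18 in Si deplete replicate 3 (others 4.34 to 4.37) and Abca1 at 7.90 in Si deplete replicate 4 (others 7.37 to 7.38). Elovl1 was at 9.98 in Si replete replicate 1 (others 9.85 to 9.87).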

How the results depend on the processing

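Under 16 alternative fits none of the 33 genes passed an adjusted p of 0.1 (lowest 0.138), nor did any at 0.05 or by Storey's q-value, and none of the 49 other pathway genes passed in those fits. The sign of the difference held for 25 genes and turned for 8. The counts at an unadjusted p under 0.05 (2 higher, 2 lower) were less stable. Higher genes numbered 1 with the mean of all probe sets of a gene, which lost Fasn and Acaca, and from 2 to 7 when 1 kidney was left out: the 7 arose on omitting Si deplete replicate 3, and omitting Si replete replicate 4 gave 5. Lower genes numbered 6 with each array's median subtracted, where 24.2% of the set had such a p in either direction, against 20.3% of all genes, and from 0 to 3 when 1 kidney was left out: 0 without Si replete replicate 1 or Si replete replicate 3, and 1 without Si deplete replicate 1 or Si deplete replicate 2. Of the 33 genes, 10 (30.3%, against 20.8% of all genes) had such a p on omitting Si deplete replicate 3, and 7 (21.2%, against 15.8%) on omitting Si replete replicate 4. The lower genes, Fdft1 and Me1, were Me1 and Sc5d with array weights or the mean of all probe sets, and Fads2 and Stard4 with quantile normalization. The cause was not tested.

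The replicate number as a block gave 6 higher and 1 lower (21.2% of the set, against 18.5% of all genes). Kidneys with the same number had deviations that correlated at 0.09, 0.09, 0.08 and -0.09, and their own number was the best match of 4 of the 8 arrays. The paper states that rats of the different groups were killed on shared days, 1 per group. Whether the replicate numbers mark these days is not given in the sources used here. These values cannot settle whether the numbers pair the rats, and the main fit did not use them as pairs.

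The turned signs were these. Idi1 differed by -0.035 with array weights and by -0.16 to 0.23 when 1 kidney was left out. Lss differed by -0.041 with each array's median subtracted, by -0.0054 with quantile normalization, by -0.036 with the mean of all probe sets, and by -0.036 to 0.083 when 1 kidney was left out. Hsd17b7 differed by 0.049 with the mean of all probe sets and by -0.18 to 0.12 when 1 kidney was left out. Elovl1 differed by -0.0053 with each array's median subtracted. When 1 kidney was left out, the ranges were -0.034 to 0.16 for Fdps, -0.47 to 0.0020 for Dhcr7, -0.14 to 0.013 for Insig1 and -0.75 to 0.17 for Scd. Subtracting the medians moved the median of all genes to -0.06. Probe sets near background limit Scd and the second probe sets of Acaca and Srebf1.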
